A study of Mus musculus with 6 samples.

Results

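Striatal identity and synaptic genes are a set of 37 genes chosen by name: regulators, receptors, peptides and signalling enzymes that mark striatal neurons, together with components of the synapse and of the neuronal cytoskeleton. They were looked up by symbol, older names included, on the mouse expression beadchip of the study, which covers 17830 named genes. Of the 37 genes, 34 were on the array with 49 probes, and Penk, Meis2 and Rbfox3 had no probe there. The study profiled STHdh cells, an immortalised line derived from the embryonic mouse striatum, in 2 groups of 3 samples. Control samples carry the plasmid name PcDNA in their titles and are given as wild-type in genotype, and the other samples are titled mFoxp1 and given as Foxp1-transfected. All samples share the line and the striatum as tissue, and the labels state no dose, time after transfection, promoter of the plasmid or share of cells that took it up. Whether the replicates are separate cultures is not stated. The p-values therefore set each group difference only against the scatter among these samples, which may be technical scatter.

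Most neurons of the striatum are GABAergic medium spiny projection neurons. Those of the direct pathway carry the D1 dopamine receptor with the peptides substance P and dynorphin, and those of the indirect pathway carry the D2 receptor with adenosine A2a receptors and enkephalin. They arise from ventral forebrain progenitors under homeobox factors such as Gsx2 and the Dlx family, and they release transmitter through the SNARE proteins of the synaptic vesicle and the plasma membrane. Foxp1 is a forkhead transcription factor that medium spiny neurons express.

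Between 11789 and 12342 of 25697 probes per array had a detection p under 0.05, the limit used here for calling a probe detected. In both groups replicate 3 was the brightest array, with median intensities of 77.0 and 64.5 against 29.2 to 38.3 on the other 4 arrays. The lowest intensity at which a probe counted as detected was 91.1 and 90.3 on these 2 arrays and 37.9 to 48.9 on the rest. The Foxp1 probe read 688, 621 and 1048 in the controls in replicate order and 4967, 4979 and 5250 in the Foxp1 samples, a normalised difference of 6.13-fold (limma adjusted p = 0.0005).

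The first question was which of the genes the control cells expressed at a detectable level. Of the 34 genes on the array, 9 were detected on all 3 control arrays by at least 1 probe (26.5%), against 46.4% of all genes on the array. These were the developmental regulators Dlx1, Dlx2 and Ebf1, the phosphodiesterase gene Pde10a, the phosphoprotein gene Ppp1r1b, the synaptic genes Stx1a, Vamp2 and Syn1, and Map2. A further 3 genes, Drd2, Syp and Dlg4, were detected on 2 control arrays, Pdyn was detected on 1, and 21 were detected on none. Over all 6 arrays, 20 genes were detected on no array. Non-detection on an array sets only an upper limit on the level, since the probe was not distinguishable from background.

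**Figure D1:**
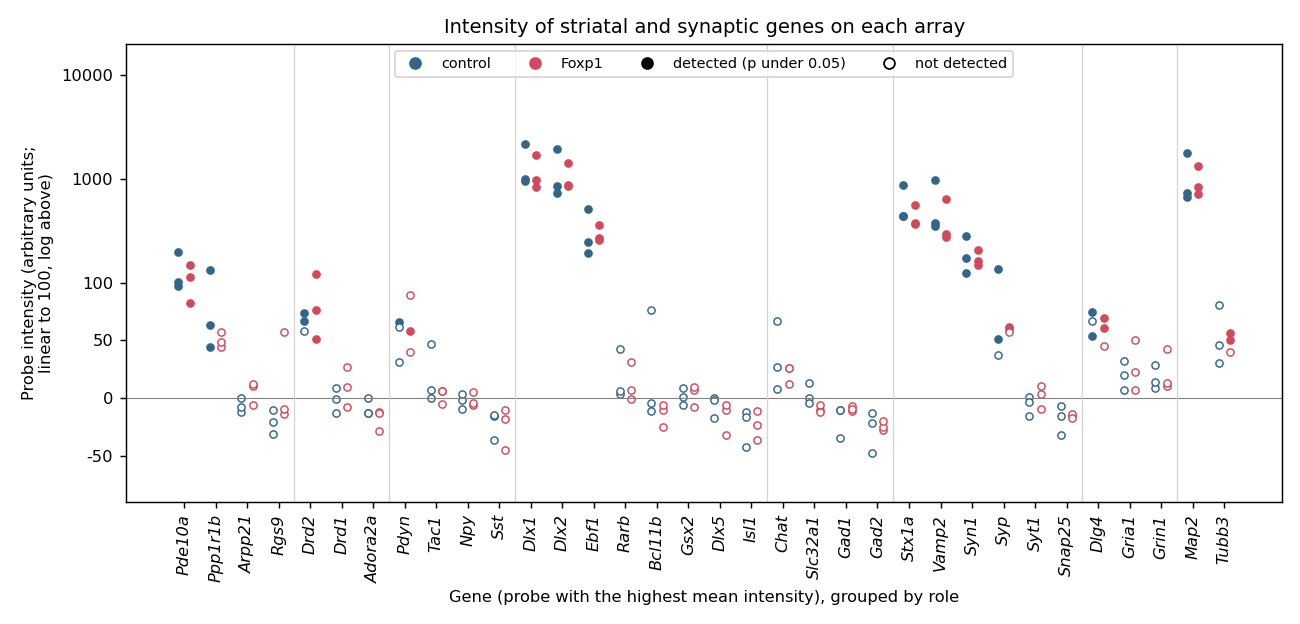
Probe intensity (arbitrary units, linear to 100 and logarithmic above) of the 34 genes on each of the 3 control and 3 Foxp1 arrays, for the probe with the highest mean intensity, grouped by role; filled points were detected and open points were not. Dlx1, Dlx2, Ebf1, Stx1a, Vamp2, Syn1, Map2 and Pde10a were detected on all 6 arrays, while most receptor, peptide and GABA genes lay around 0.

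Among transcription factors, detection divided the Dlx family. Dlx1, a homeobox factor of ventral forebrain progenitors and interneurons, had intensities of 999, 952 and 2156 on control arrays 1 to 3. Its neighbour on chromosome 2, Dlx2, which acts with it in the same progenitors, had 859, 726 and 1952. Both probes were far above the detection limit on every array. Both probes for Dlx5, a later member of the family, were undetected on all 6 arrays, with intensities of -53.1 at the lowest and -0.459 at the highest. Ebf1, needed in mice for direct pathway neurons to mature, had 248, 193 and 507 in controls and was detected throughout. By contrast Bcl11b, known as Ctip2 and a regulator of medium spiny neuron differentiation, gave intensities of -11.5, -4.66 and 76.4 in controls (detection p of 0.726, 0.446 and 0.0752). It was not detected on any array, and its highest value came from the brighter control array 3. Isl1, a determinant of direct pathway neurons, Gsx2, the progenitor factor upstream of the Dlx genes, and the 3 probes of the retinoic acid receptor gene Rarb were also undetected on all 6 arrays.

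Genes for the products that make a neuron GABAergic or cholinergic were not detected. The 2 probes for Gad1 and the probe for Gad2, the enzymes that make GABA, had only negative intensities, between -47.9 and -7.28 over the 6 arrays. Slc32a1, which loads GABA into vesicles, had 0.186, -4.07 and 13.0 in controls (detection p of 0.357, 0.436 and 0.296). The 2 probes of Chat, the enzyme that makes acetylcholine in striatal interneurons, were undetected on all arrays, with a lowest detection p of 0.0852 on control array 3. These values lie within the range of probes that the array could not tell from background.

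Of the members, Dlx1, Dlx2 and Stx1a were detected throughout and Gad1 was undetected, and Stx1a had the smallest p in the comparison with Foxp1. Promoter sequence is shown for these 4 genes as examples only. Each is the RefSeq stretch of 300 bases (250 before to 50 after the gene's start, build GRCm38.p6) on the coding strand, at chr2:71529195-71529494 (plus strand) for Dlx1, chr2:71546705-71547004 (minus strand) for Dlx2, chr5:135023232-135023531 (plus strand) for Stx1a and chr2:70561879-70562178 (plus strand) for Gad1. Capitals mark the short forkhead core TGTTT or its reverse complement AAACA.
Dlx1: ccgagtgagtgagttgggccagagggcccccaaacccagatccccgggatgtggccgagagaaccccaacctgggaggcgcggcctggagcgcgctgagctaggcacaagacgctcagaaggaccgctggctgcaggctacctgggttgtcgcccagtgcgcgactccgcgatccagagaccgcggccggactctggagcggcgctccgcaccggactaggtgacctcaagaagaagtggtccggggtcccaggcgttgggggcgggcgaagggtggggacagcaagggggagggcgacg
Dlx2: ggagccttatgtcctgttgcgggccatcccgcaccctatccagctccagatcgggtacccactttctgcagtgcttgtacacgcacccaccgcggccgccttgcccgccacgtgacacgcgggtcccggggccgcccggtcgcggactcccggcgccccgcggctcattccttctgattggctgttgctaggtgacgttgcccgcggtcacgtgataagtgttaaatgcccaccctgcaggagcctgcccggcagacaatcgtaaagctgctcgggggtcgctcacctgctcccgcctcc
Stx1a: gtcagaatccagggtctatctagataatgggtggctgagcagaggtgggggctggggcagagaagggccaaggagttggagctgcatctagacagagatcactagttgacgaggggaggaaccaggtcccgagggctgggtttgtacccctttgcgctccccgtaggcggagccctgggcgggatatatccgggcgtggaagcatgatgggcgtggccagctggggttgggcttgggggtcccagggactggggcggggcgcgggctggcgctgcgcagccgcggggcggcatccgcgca
Gad1: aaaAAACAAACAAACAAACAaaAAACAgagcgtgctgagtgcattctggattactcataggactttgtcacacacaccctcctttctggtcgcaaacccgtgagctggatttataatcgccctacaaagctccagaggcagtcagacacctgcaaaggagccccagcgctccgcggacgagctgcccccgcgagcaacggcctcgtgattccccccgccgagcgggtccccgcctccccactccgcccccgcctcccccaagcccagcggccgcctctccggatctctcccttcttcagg

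Dlx1, Dlx2 and Stx1a held no match to the core in this window and Gad1 held 5 in an adenine-rich run near its 5′ end, most of them overlapping. Gad1 held the most of any member with a promoter. Gad2, Slc32a1 and Isl1, also undetected, held 0, and Ebf1, detected throughout, held 2. RefSeq promoters were at hand for 30 of the 37 genes, with 1 start per gene. Of these, 12 held TGTTT on either strand (40.0%), against 50.9% of 27025 promoters, and 0 held the longer forkhead motif TGTTTAC, against 3.55%. Every TGTTTAC contains a TGTTT. Among genes detected on all 3 control arrays, 1 of 7 with a promoter held TGTTT, namely Ebf1, and among the other members on the array 11 of 21 (52.4%). Over all genes on the array, 36.1% of promoters of genes detected on all 3 control arrays held TGTTT and 53.8% of those of genes detected on none. Detected members also had more CpG dinucleotides, with a median of 27 (range 9 to 37) against 17 (range 5 to 37). Over all genes on the array the medians were 22 for genes detected on all 3 control arrays and 6 for those detected on none. These are descriptions of the letters in this window and carry no test.

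Signalling genes of medium spiny neurons were divided as well. Pde10a, a phosphodiesterase enriched in these neurons, had intensities of 97.1, 102 and 198 on control arrays 1 to 3, each detected. Ppp1r1b, which encodes DARPP-32, the integrator of dopamine signals through protein phosphatase, was read by 3 probes. The first had 43.7, 63.3 and 131.5 in controls, detected on all 3 arrays but close to the limit (detection p of 0.0288, 0.0213 and 0.0213). The next had 33.1, 59.8 and 75.2 and was detected on control array 2 only, and the last was below 0 on every array. Detection of Ppp1r1b thus rested on 1 of its 3 probes. Rgs9, which shortens G protein signalling downstream of dopamine receptors, and both probes of Arpp21, a cAMP-regulated phosphoprotein, were undetected on all 6 arrays.

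Of the receptors and peptides that define the striatal output pathways, only Drd2 and Pdyn were detected on any control array. Drd1, listed on the array as Drd1a, had intensities of 8.52, -1.34 and -12.7 in controls, and Adora2a, the adenosine receptor of the indirect pathway, was at or below 0 on all 6 arrays. Drd2, the D2 receptor, had 66.8, 73.5 and 58.4 in controls, with detection p of 0.0113, 0.0125 and 0.117. It was detected on control arrays 1 and 2 and not on array 3. The intensity limit was higher on that brighter array. The normalised log2 level of Drd2 was also lower there, at 5.83 against 6.84 and 6.91 on control arrays 1 and 2. Of the peptide precursors, Pdyn, the source of dynorphin, was detected on control array 2 (intensity 66.0) and not on arrays 1 and 3 (31.0 and 61.6). Its other probe was undetected on all arrays. Tac1, the source of substance P, and Npy and Sst, peptides of striatal interneurons, were detected on no array.

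Synaptic vesicle and release genes held both detected and undetected members. Stx1a, a plasma membrane SNARE, had intensities of 441, 439 and 866 on control arrays 1 to 3. Vamp2, its SNARE partner on the vesicle, had 374, 353 and 972. Syn1, a phosphoprotein that tethers vesicles, had 173, 123 and 281 with one probe and 124, 112 and 287 with the other, and both were detected on every array. Syp, an integral vesicle protein, had 51.0, 37.5 and 135 in controls, detected on arrays 1 and 3. Snap25, which completes the neuronal SNARE complex with Stx1a and Vamp2, was negative on all 6 arrays, between -32.1 and -7.06. Syt1, the calcium sensor of release, was undetected on all 6 arrays as well, with 0.709, -3.37 and -15.5 in controls.

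Of the postsynaptic genes, Dlg4, which encodes the scaffold PSD-95 and is listed on the array as Dlgh4, had 74.2, 54.0 and 66.3 in controls and was detected on arrays 1 and 2. The 3 probes of Gria1, an AMPA receptor subunit, and the 2 of Grin1, the obligatory NMDA receptor subunit, were undetected on all 6 arrays. Map2, a microtubule protein of dendrites, had 727, 666 and 1777 in controls with 1 probe, while its other 2 probes were undetected on all arrays. What the transcripts read by the 3 Map2 probes have in common is not given in the files. Tubb3, the tubulin used as an early neuronal marker, had 30.1, 45.9 and 80.6 in controls, with detection p of 0.0752, 0.0501 and 0.0664, just outside the limit on each array. It was detected on Foxp1 arrays 1 and 2 (intensities 56.2 and 50.2) and not on array 3 (40.2).

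Among longer lists of the same systems, the share detected on all 3 control arrays ran from 4.35% to 42.1%, against 46.4% of all genes on the array. Of further striatal projection neuron genes, 10 of 42 on the array were detected on all 3 control arrays (23.8%), among them the phosphodiesterase Pde1b, the G protein subunits Gnal and Gng7 and the phosphatase Ptpn5, while 32 were detected on none, including Foxp2, Six3, Adcy5 and Chrm4. Of further interneuron genes, only Cort, the cortistatin precursor, was detected on all 3, of 23 (4.35%). Further ventral forebrain progenitor genes gave 11 of 29 (37.9%), including Sox2, Nes, Nr2f1 and Meis1. Further vesicle and release genes gave 13 of 39 (33.3%), further postsynaptic genes 14 of 44 (31.8%) and further pan-neuronal genes 16 of 38 (42.1%). The pan-neuronal list also holds regulators that repress neuronal genes or neuronal splicing in non-neuronal cells. Of these, Rcor1 and Ptbp1 are among its 16 detected genes, and Rest was detected on none of the control arrays.

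A further set of SNARE and vesicle genes was listed because most cell types use them, so a high share was likely in advance. Of these, 33 of 34 were detected on all 3 control arrays (97.1%). Among them were Snap23 and Vamp3, the widely expressed relatives of Snap25 and Vamp2. Of mesenchymal and fibroblast markers, 9 of 12 were detected (75.0%), among them Vim, Acta2, Col1a1 and Twist1, while Col1a2, Lum and Postn were detected on none. The counts were 4 of 11 for astrocyte markers (Slc1a3, Gja1, Sox9 and Aldoc, with Gfap, Aqp4, S100b, Glul and Fabp7 detected on none), 3 of 9 for oligodendrocyte markers (Cnp, Cspg4 and Pdgfra), 1 of 10 for microglia and macrophage markers (Cd68) and 1 of 9 for endothelial markers (Flt1). Detected on none of the control arrays were 5 of the 9 oligodendrocyte markers (Mog, Mag, Olig1, Mobp and Ugt8a). The same held for 9 of the 10 microglia and macrophage markers and for 7 of the 9 endothelial markers. Flt1, by contrast, had intensities of 1980, 1798 and 4047 on control arrays 1 to 3. Set against the labelled striatal origin, the roles that had any gene detected on all 3 control arrays were transcription factors (3 of 8, with Bcl11b, Isl1, Rarb, Dlx5 and Gsx2 detected on none), medium spiny neuron signalling (2 of 4), vesicle and release (3 of 6) and cytoskeleton (1 of 2). Dopamine and adenosine receptors, peptide precursors, GABA and acetylcholine genes and postsynaptic genes had 0 of 3, 0 of 4, 0 of 4 and 0 of 3.

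**Figure D2:**
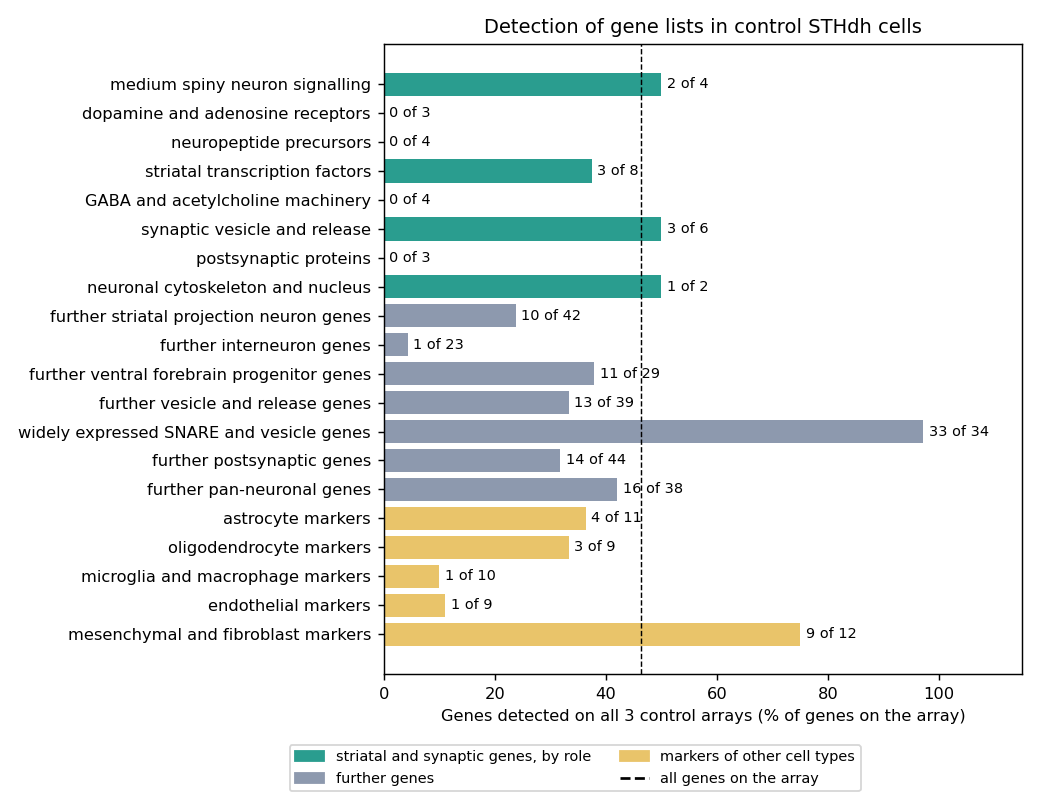
Share of genes detected on all 3 control arrays, as a percent of the genes of each list on the array, with counts beside the bars; the dashed line marks all genes on the array (46.4%). The shares ran from 0 of 4 for the GABA and acetylcholine genes to 33 of 34 for widely expressed SNARE and vesicle genes.

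The second question was what changed with Foxp1. A probe was tested if it was detected on at least 3 of the 6 arrays, which kept 13 probes of 12 of the genes and left 22 genes on the array without a test. Where several probes of a gene were kept, the one with the highest mean stood for it, and levels from here on are normalised log2 levels. With limma, 0 of the 12 genes passed an adjusted p of 0.05, against 2.73% of 8789 tested genes (1.15% lower and 1.58% higher with Foxp1). At an unadjusted p under 0.05, 4 of the 12 did (Stx1a, Ppp1r1b, Vamp2 and Dlx1), all lower with Foxp1, against 18.5% of all genes in either direction and 10.2% lower. The groups did not overlap for 3 of the 12 (Stx1a, Ppp1r1b and Dlx1), against 25.8% of all genes. Of the 12 differences, 11 were negative and 1 positive, between -0.48 and 0.06 with a median of -0.16, while over all tested genes 50.5% were negative and the median was 0.00. Ppp1r1b was kept for testing only through its 3 control arrays. Its lower level with Foxp1 was thus favoured by the filter, and its place in these counts adds no support. In these bulk samples, fewer cells that express a gene and less RNA per cell cannot be told apart.

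**Figure D3:**
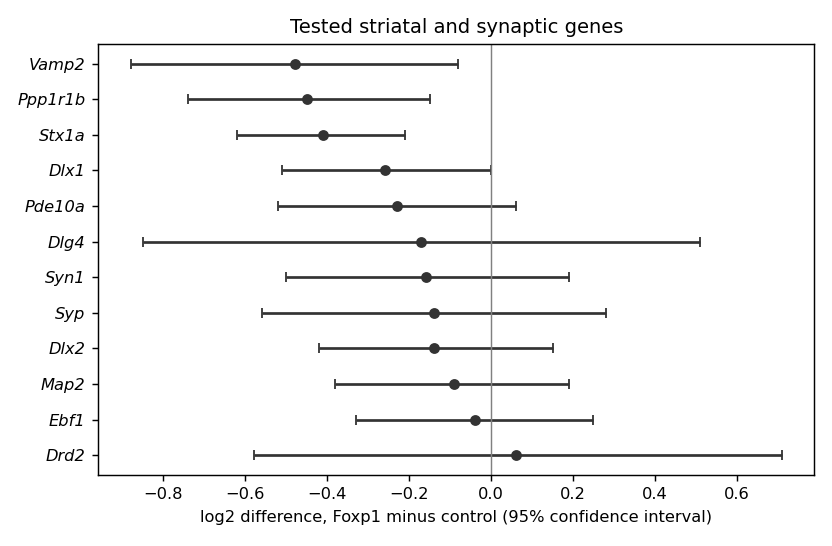
log2 difference, Foxp1 minus control, of the 12 tested genes with its 95% confidence interval from limma (3 arrays per group). Stx1a had the narrowest interval, -0.62 to -0.21, and those of Drd2 and Dlg4 were the widest.

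Stx1a, the plasma membrane SNARE, came closest to the threshold. In replicate order, its log2 levels were 9.26, 9.26 and 9.19 in controls and 8.79, 8.90 and 8.77 with Foxp1. All Foxp1 arrays lay below all control arrays, and same-numbered pairs differed by -0.46, -0.36 and -0.42. The difference was -0.41 ± 0.09 (SE), or 1.33-fold lower, with a 95% confidence interval of -0.62 to -0.21 (limma adjusted p = 0.0554). Over 16 alternative settings the adjusted p ran from 0.0178 to 0.215, and it was under 0.05 with a larger offset (0.0493), with only probes detected on all 6 arrays (0.0449), with array weights (0.0178) and with probes averaged per gene (0.0406).

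Vamp2, the vesicle SNARE, had log2 levels of 9.04, 8.95 and 9.36 on control arrays and 8.48, 8.44 and 8.98 on Foxp1 arrays. The replicate 3 array was the highest in both groups, and Foxp1 array 3 lay above control array 2, so the groups overlapped. Within same-numbered pairs the differences were -0.56, -0.51 and -0.37. The difference was -0.48 ± 0.17 (SE), 1.39-fold lower, with an interval of -0.88 to -0.08 (limma adjusted p = 0.202). An alternative fit took the replicate number as a block, which treats same-numbered arrays as pairs although the labels state no pairing. With that block Vamp2 passed (limma adjusted p = 0.0471), and over the 16 settings its adjusted p ran from 0.0471 to 0.482. That block raised the share of all genes called from 2.73% to 3.79%.

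**Figure D4:**
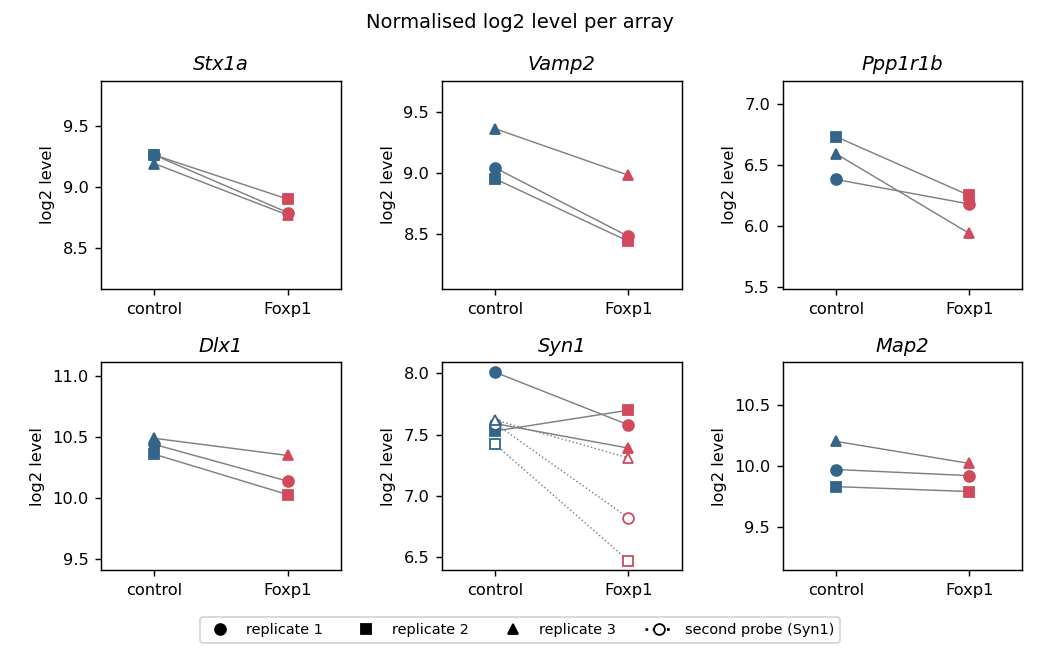
Normalised log2 level of 6 genes on the 3 control and 3 Foxp1 arrays; symbols mark the replicate number, lines join arrays with the same number, and open symbols with dotted lines are a further probe of Syn1. Stx1a, Vamp2, Ppp1r1b, Dlx1 and Map2 were lower on the Foxp1 array of every pair, and the probes of Syn1 differed from each other.

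The remaining vesicle genes did not pass. Syn1 gave unlike values with its 2 probes. The probe with the higher mean read log2 levels of 8.01, 7.53 and 7.59 in controls and 7.58, 7.70 and 7.39 with Foxp1, a difference of -0.16 ± 0.15 (SE, adjusted p = 0.634). It was -0.01 without control replicate 1, -0.07 without Foxp1 replicate 3 and -0.06 with array weights. The other read 7.59, 7.42 and 7.62 against 6.82, 6.47 and 7.31, with no overlap and a difference of -0.68 ± 0.20 (SE, adjusted p = 0.126). Neither Syn1 probe passed, and the interval of the latter was -1.13 to -0.22. Syp read 6.53, 6.16 and 6.62 in controls and 6.50, 6.45 and 5.94 with Foxp1, with overlapping groups and an interval of -0.56 to 0.28 (adjusted p = 0.739). Its levels lay around the lowest level of a detected probe, which was 6.18 to 6.37 depending on the array.

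For Ppp1r1b the level with Foxp1 is known only as an upper limit. The probe detected in controls had log2 levels of 6.38, 6.73 and 6.59 there and of 6.18, 6.25 and 5.94 on Foxp1 arrays, where no array detected it (detection p of 0.0589, 0.0501 and 0.0990). The groups did not overlap, and the fitted difference was -0.45 ± 0.13 (SE, limma adjusted p = 0.124). With Foxp1 levels raised to the lowest level of a detected probe where they lay below it, the Foxp1 group was 1.21-fold lower. That fold leaves out the scatter between arrays and is no minimum. The interval of the fitted difference was -0.74 to -0.15. The next Ppp1r1b probe went the other way in intensity, with 33.1, 59.8 and 75.2 in controls and 47.5, 79.1 and 79.2 with Foxp1, and it was detected on 1 array of each group. Ppp1r1b passed only with array weights (0.0419), and its adjusted p reached 0.270 over the 11 settings that kept this probe. Pde10a read 7.27, 7.31 and 7.12 in controls and 6.83, 7.24 and 6.95 with Foxp1. Foxp1 array 2 lay within the control range, and the difference of -0.23 ± 0.13 (SE) did not pass (adjusted p = 0.393).

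Of the developmental regulators, Dlx1 had log2 levels of 10.44, 10.36 and 10.49 in controls and of 10.14, 10.03 and 10.35 with Foxp1. The groups were next to each other without overlap, and the difference was -0.26 ± 0.11 (SE), 1.19-fold lower, which did not pass (adjusted p = 0.274). Dlx2 read 10.21, 9.95 and 10.35 against 9.94, 10.06 and 10.09, a difference of -0.14 ± 0.12 (SE, adjusted p = 0.604). The groups of Dlx2 overlapped, and its interval was -0.42 to 0.15. Ebf1 read 8.49, 8.14 and 8.41 against 8.33, 8.44 and 8.15, a difference of -0.04 ± 0.13 (SE, adjusted p = 0.911) with an interval of -0.33 to 0.25. The Dlx genes and Ebf1 stayed detected on all Foxp1 arrays, as the plot of intensities shows.

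Drd2, Dlg4 and Map2 complete the tested genes. Drd2 read 6.84, 6.91 and 5.83 in controls and 6.75, 6.30 and 6.71 with Foxp1. Control array 3, the array that did not detect it, was the lowest, and the difference of 0.06 ± 0.28 (SE, adjusted p = 0.936) left an interval of -0.58 to 0.71. Dlg4 read 6.95, 6.54 and 5.92 against 6.64, 6.47 and 5.78, with the replicate 3 array lowest in both groups, and its difference was -0.17 ± 0.30 (SE, adjusted p = 0.808). Map2 read 9.97, 9.83 and 10.20 against 9.92, 9.79 and 10.02. Its groups overlapped, the difference was -0.09 ± 0.12 (SE, adjusted p = 0.748), and the interval was -0.38 to 0.19. Without control array 3 the difference of Drd2 was -0.28, and without control array 1 that of Dlg4 was 0.07, neither of which passed.

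For the genes without a test, the Foxp1 arrays added little detection. On the Foxp1 arrays 9 genes were detected on all 3, 3 on 2, 2 on 1 and 20 on none. Drd2 joined the genes detected on all 3 arrays and Ppp1r1b left them, and Tubb3, detected on no control array, was detected on 2. Rgs9 had its highest intensity on Foxp1 array 3 (57.4), where it was not detected, with negative values on the other 5 arrays. No probe for Bcl11b, Isl1, Gsx2, Drd1, Adora2a, Gad1, Gad2, Slc32a1, Snap25 or Syt1 was detected on any Foxp1 array, so no change can be given for these genes.

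The longer lists were tested in the same fit. None of the 10 kept further striatal projection neuron genes, the 1 kept further interneuron gene or the 13 kept further ventral forebrain progenitor genes passed with limma, and by unadjusted p under 0.05 there were 2, 1 and 2, all lower, against 10.2% of all tested genes lower at that p. Pde1b, a calcium-dependent phosphodiesterase of striatal neurons, had the smallest p of the first list (-0.57 ± 0.13 SE, adjusted p = 0.0743). It passed with an offset of 50 (0.0493), with array weights (0.0209) and without both replicate 3 arrays (0.0491). Its highest adjusted p was 0.251. Gng7 came next (-0.34 ± 0.12 SE, adjusted p = 0.176). Cort differed by -0.47 ± 0.13 (SE, adjusted p = 0.115). With Foxp1 it lay at the detection limit, with log2 levels of 6.14, 6.28 and 6.11 and detection on 1 array. Its 3 control arrays alone let it meet the filter. Among progenitor genes, Nr2f1, a nuclear receptor, differed by -0.26 ± 0.10 (SE, adjusted p = 0.215). The list medians were -0.04 for striatal projection neuron genes and -0.11 for progenitor genes, beside 0.00 over all genes.

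Among 13 kept further vesicle and release genes, 15 postsynaptic genes and 18 pan-neuronal genes, 0 passed with limma, and 5, 2 and 2 had an unadjusted p under 0.05, against 18.5% of all tested genes. Rab3a, a GTPase of synaptic vesicles, differed by -0.54 ± 0.13 (SE, adjusted p = 0.0757) and passed with array weights (0.00971), without control replicate 3 (0.0245) and without both replicate 3 arrays (0.0476). Its highest adjusted p was 0.242. Napb, a cofactor of SNARE disassembly, had a positive difference (0.35 ± 0.11 SE, adjusted p = 0.147). Nlgn2, an adhesion protein of inhibitory synapses, and Pick1, a scaffold that binds AMPA receptors, differed by -0.25 ± 0.10 and -0.22 ± 0.09 (SE, adjusted p of 0.226 and 0.264). Averaging probes per gene gave -0.09 for Pick1 (limma adjusted p = 0.779). Ncam1, a neural cell adhesion molecule, differed by -0.53 ± 0.11 (SE, adjusted p = 0.0533). It passed with the replicate block (0.0386), an offset of 50 (0.0427), the authors' processed values (0.0489), probes detected on all 6 arrays (0.0418), array weights (0.0139) and without both replicate 3 arrays (0.0491), whereas averaging probes per gene gave -0.27 (0.241). Tubb4a, a neuronal beta tubulin, differed by -0.51 ± 0.15 (SE, adjusted p = 0.130), and passed with array weights (0.0259). The medians of the 3 lists were -0.13, -0.04 and 0.01.

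Widely expressed SNARE and vesicle genes had 33 kept members, of which 1 rose, 1 fell and 31 did not pass, with a median of -0.07. Over all tested genes 1.58% were called higher and 1.15% lower, so 1 call in each direction among 33 is close to the background and is no result about the list. Stx3, a syntaxin of apical and other plasma membranes, had log2 levels of 8.58, 8.64 and 8.91 in controls and 9.36, 9.42 and 9.44 with Foxp1. It rose by 0.70 ± 0.11 (SE), 1.62-fold, with no overlap (limma adjusted p = 0.0221). Rab3d, a GTPase of regulated secretion in many cell types, read 7.26, 7.31 and 7.95 in controls and 6.55, 6.27 and 6.63 with Foxp1. It fell by 1.03 on the log2 scale (SE 0.19), 2.04-fold lower (limma adjusted p = 0.0370). Both calls were lost on leaving out any 1 array other than control replicate 3 (highest adjusted p 0.123 for Stx3 and 0.165 for Rab3d). That of Rab3d was also lost with no background correction (0.0528) and with no detection filter (0.0954).

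Markers of other cell types were read beside these values. All 9 kept mesenchymal and fibroblast markers were lower with Foxp1 (median difference -0.11), while 50.5% of all tested genes were lower. With limma 0 of the 9 passed. At an unadjusted p under 0.05 there were 2, both lower, against 10.2% of all tested genes lower at that p. The log2 levels of these markers, summed over the 9 genes, were at least 98.97 on every control array. On every Foxp1 array the sum was at most 98.02, without overlap. That sum was not tested, and 14.1% of all tested genes were by themselves lower without overlap. Of 3 kept oligodendrocyte lineage markers, Pdgfra, a growth factor receptor of oligodendrocyte precursors and mesenchymal cells, fell (-0.61 ± 0.12 SE, limma adjusted p = 0.0471), with adjusted p = 0.0524 with the replicate block and a range of 0.0146 to 0.172 over 16 settings. Its call was also lost on leaving out any 1 array other than control replicate 3, or both replicate 3 arrays, and with no background correction (0.0628), median scaling (0.0554) or no detection filter (0.0859). Of 5 kept astrocyte markers 0 passed. Slc1a3, a glutamate transporter, differed by -0.61 ± 0.18 (SE, adjusted p = 0.137, and 0.0455 with the replicate block) and Sox9 by 0.50 ± 0.15 (SE, adjusted p = 0.125). The astrocyte sums overlapped, at 41.48 to 43.21 in controls and 41.24 to 42.52 with Foxp1. The part of these markers in the differences of Stx1a, Vamp2 and Ppp1r1b was not tested.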

How the data were processed

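Gene expression was measured on 6 Illumina mouse beadchips. Per the file headers, the deposited table gives, for each array, every probe's intensity in linear units beside a detection p-value. Between 29.5% and 31.6% of the intensities were below 0, so a background had been subtracted. The submitters' processing notes name GenomeStudio, without a version. A further deposited table holds the authors' processed values, read as log2, and served as an alternative.

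Background was modelled with neqc of limma 3.58.1 (normal-exponential, offset 16) in R 4.3.3, and values were quantile-normalised and put on the log2 scale. With this offset, differences of dim probes come out smaller. Probes with detection p under 0.05 on at least 3 of 6 arrays (12136 of 25697) were compared with limma (lmFit, eBayes, 2-sided, Benjamini-Hochberg over these probes), after a check on simulated data. A gene was its kept probe with the highest mean, leaving 8789 genes. For Ppp1r1b, a further fold compares the control mean with raised Foxp1 levels. Each of these is the higher of the probe's own level and the lowest level of any detected probe. Scatter between arrays does not enter this fold. The number of arrays limits precision.

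Symbols were updated with the RefSeq table of GRCm38.p6 (17551 probes current, 7082 by synonym). For 27 probes the symbol had become a date or number, and they were left without a gene. The rest were left as named. Groups come from the sample titles. The members and lists were chosen with earlier results of these data known. All members are named. Of each further list, up to 6 genes past the threshold are named, or the 2 with the smallest p, except for an item that is not reported here. Genes named only as detected or undetected were chosen after their values were seen. Deviations from group means of same-numbered arrays correlated at 0.257, 0.115 and 0.401, and equal numbers were treated as pairs, which rests on these correlations since the labels state no pairing. Arrays with unequal numbers correlated at -0.319 to 0.151, and replicates 1 and 2 were not separated (0.151 and 0.121 across numbers); a fit with the replicate number as a block was an alternative.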

Additional observations from a re-analysis of the deposited data

How the results depend on the processing

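No striatal or synaptic gene passed in 11 of the 16 alternatives. The count of genes passing was 1 with an offset of 50 (Stx1a), 1 with only probes detected on all 6 arrays (Stx1a), 1 with the replicate block (Vamp2), 1 with probes averaged per gene (Stx1a) and 2 with array weights (Stx1a and Ppp1r1b). It was 0 in each of the fits without 1 array. The block changed no other call among the 12 tested genes. Over the whole table, 240 genes passed, 753 with array weights, and 28 to 265 in the fits without 1 array, lowest without Foxp1 replicate 2 or 1 (28 and 29) and 93, 75 and 90 without control replicate 1, control replicate 2 and Foxp1 replicate 3. Detection on all 3 control arrays held for 8 genes at a detection p under 0.01, where Ppp1r1b dropped out, and for 12 genes with 2 arrays required.

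Of 184 values over genes and alternatives, 164 kept sign and side of the threshold, 6 passed it and 14 changed sign, none of which passed. Dlg4 became 0.07 without control replicate 1 and 0.09 without Foxp1 replicate 3 (-0.44 to 0.09 over the fits without 1 array). Drd2 became -0.19 with array weights, -0.28 without control replicate 3, -0.02 without Foxp1 replicate 1 (-0.28 to 0.26 over these fits) and -0.34 without both replicate 3 arrays, an alternative chosen after seeing the data. Ebf1 became 0.09 with array weights, 0.03 without control replicate 1, 0.04 without Foxp1 replicate 3 (-0.14 to 0.04) and 0.07 without both replicate 3 arrays. Map2 became 0.01 without control replicate 3 (-0.18 to 0.01). Syp became 0.10 with array weights, 0.04 without Foxp1 replicate 3 (-0.28 to 0.04) and 0.13 without both replicate 3 arrays. The cause was not tested. Signal over background limits what can be said of Drd2, Syp, Dlg4 and Ppp1r1b, whose tested probes were detected on only part of the arrays. It also limits what can be said of the 22 genes on the array without a test.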
